A study of Mus musculus with 10 samples.

Results

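The cell cycle genes described here are 33 genes of G1 entry, DNA replication and mitosis, among 24411 genes listed in an RNA-seq data set of mouse lumbar spinal cord. They were chosen by name and not by a measured value, although earlier results of these data were known. All 33 were found in the table under their own symbols. The study compared mice given paclitaxel, a microtubule-stabilising cancer drug that arrests dividing cells in mitosis, with mice given vehicle, as a model of the painful peripheral neuropathy that the drug causes. There were 5 libraries with paclitaxel and 5 with vehicle, each called below by its group and its replicate number. The labels name no strain, sex, age, dose or time after treatment. Nor do they say whether each library came from a separate mouse, and the spread behind each p-value may therefore be technical.

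Dividing cells pass from G1 through DNA synthesis to mitosis. D-type cyclins with CDK4 open the way by phosphorylating the retinoblastoma protein, which frees E2F factors to switch on replication genes. The MCM helicase then unwinds DNA, PCNA clamps the polymerases, and ribonucleotide reductase supplies nucleotides. Cyclins A and B with CDK1 drive mitosis, and the spindle assembly checkpoint, which microtubule drugs engage, holds chromosomes until every kinetochore is attached. In the adult cord most neurons and mature glia no longer divide, and oligodendrocyte precursors are the main cycling cells.

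Summed over genes, a paclitaxel library held 3676259 to 5432072 counts and a vehicle library 4585899 to 7791594. Levels are given as CPM, the count scaled to the library size after trimmed-mean (TMM) normalisation, and 3 counts made up 0.385 to 0.819 CPM depending on the library. Defining markers of cord cells were high in every library. Over 7 neuronal genes the summed level was 6231 to 7102 CPM, and over 5 genes of mature oligodendrocytes it was 20104 to 23669 CPM. Paclitaxel replicate 3 stood furthest from its group, with a chi-square of 4.84 to 6.55 per degree of freedom against each of the other 4 libraries. In the vehicle group it was 2.68 to 4.33 for replicate 1 and 1.90 to 2.79 for replicate 4, which earlier results of these data had set apart. This measure did not set vehicle replicate 4 apart, with replicate 2 at 1.87 to 2.68 and replicate 5 at 2.09 to 4.33. For several values that rest on paclitaxel replicate 3, vehicle replicate 1 or vehicle replicate 4, the value without that library is given too.

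Most of the G1 and replication genes were higher in level than most of the mitotic genes, but the levels overlapped. Per kilobase of transcript, and averaged over all 10 libraries, Bub3 was highest, at 33.5 CPM per kb. Bub3 encodes a checkpoint protein that also has roles outside mitosis. The replication clamp gene Pcna followed at 27.5 CPM per kb, then Ccnd1 (cyclin D1) at 14.4, Cdk4 at 13.4 and Ccnd3 (cyclin D3) at 12.2 CPM per kb. The neighbours Ccnd1 and Cdk4 lay within the spread between libraries, with SDs of 1.85 and 1.19 CPM per kb. The large subunit of ribonucleotide reductase, Rrm1, stood at 6.41 CPM per kb and Ccnd2 (cyclin D2) at 6.004, again within their SDs of 0.863 and 0.854 CPM per kb. The 6 MCM subunits ran from 0.937 (Mcm5) to 4.598 (Mcm4) CPM per kb. Apart from Bub3, the mitotic genes reached at most 1.91 CPM per kb, in Mad2l1. Bub1b, at 1.28 CPM per kb, and Mcm3, at 1.27, lay within their spread (SDs of 0.520 and 0.398), and Cdk2 was at 1.06 CPM per kb.

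Of the 33 genes, 11 had a mean below 1 CPM and 5 were at 0 counts in at least 1 library. The lowest was Aurkb, the kinase of the chromosomal passenger complex, with 0 counts over the paclitaxel libraries and 1 count over the vehicle libraries. A count of 0 in a single library allows up to 3 counts, the 0.385 to 0.819 CPM above. Bub1, Ube2c, Ccnb1 and Ccnb2 held 14, 11, 14 and 15 counts over all 10 libraries. The proliferation antigen gene Mki67 held 64 counts and Top2a, the topoisomerase that untangles chromosomes, 49. A filter on low counts left 18 of the 33 for testing. It kept all 5 G1 genes and 8 of 9 replication genes, but 5 of 19 mitotic genes.

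**Figure D1:**
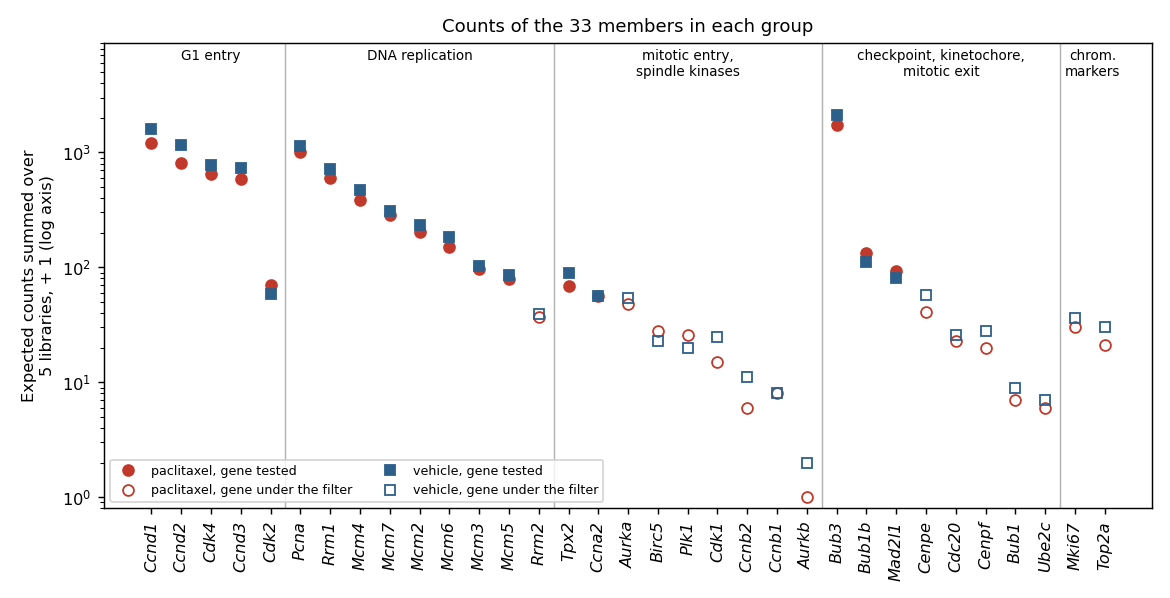
Expected counts of each gene summed over the 5 libraries of a group, plus 1, on a log axis, with genes grouped by role. Circles are paclitaxel, squares vehicle and open symbols genes under the filter. Bub3 holds 1743 and 2117 counts, while most other mitotic genes lie under 100.

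Some of these counts can include reads of a neighbouring gene, because the strand setting of the counting is not given. On GRCm38, the assembly that mm10 names, the 3′ part of Ccna2 (cyclin A2) shares 863 bases with Exosc9, which held 1190 counts against 111 for Ccna2. Ccna2 and Ccnd3, which shares 359 bases with Bysl, were the 2 genes among the 33 with expected counts that were not whole. Values of Ccna2 are therefore uncertain. The whole span of Cdk2, 7114 bases, lies within that of Pmel, which held 31 counts. Further overlaps included Aurka with Cstf1 (242 bases, 885 counts), Cdc20 with Elovl1 (53 bases, 1892 counts) and Mcm7 with Ap4m1 (91 bases, 369 counts). Ccnd2 shares 2800 bases with the non-coding gene 9330179D12Rik, which held 67 counts.

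Promoters were searched for letters that are known from cell cycle genes, and 4 are shown, those of the most abundant replication and mitotic genes beside 2 low mitotic ones. RefSeq windows on GRCm38.p6, 250 bases before to 50 after the start, were found for 27 of the 33 genes (30 windows). None was listed for Ccnd1, Ccnd2, Mcm4, Ccna2, Aurkb and Tpx2. Capitals mark matches on either strand to an E2F-type site (TTCCCGC or TTGGCGC), to a cell cycle genes homology region (CHR, TTTGAA or TTCGAA) or to a CCAAT box (CCAAT). Pcna lies at chr2:132253131-132253430 (minus strand), Bub3 at chr7:131560120-131560419 (plus strand), Cdc20 at chr4:118437294-118437593 (minus strand) and Top2a at chr11:99024140-99024439 (minus strand).
Pcna: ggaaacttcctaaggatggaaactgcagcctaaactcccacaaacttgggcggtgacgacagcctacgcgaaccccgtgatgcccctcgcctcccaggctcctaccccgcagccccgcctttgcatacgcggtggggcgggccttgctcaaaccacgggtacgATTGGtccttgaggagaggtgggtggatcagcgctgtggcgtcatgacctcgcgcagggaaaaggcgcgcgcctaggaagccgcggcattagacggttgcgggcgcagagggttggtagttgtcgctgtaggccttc
Bub3: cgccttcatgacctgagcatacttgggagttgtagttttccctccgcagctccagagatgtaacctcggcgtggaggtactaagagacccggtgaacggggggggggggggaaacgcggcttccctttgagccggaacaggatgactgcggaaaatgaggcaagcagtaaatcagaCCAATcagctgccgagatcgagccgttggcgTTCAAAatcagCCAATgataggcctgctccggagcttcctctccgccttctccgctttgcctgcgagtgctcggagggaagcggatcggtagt
Cdc20: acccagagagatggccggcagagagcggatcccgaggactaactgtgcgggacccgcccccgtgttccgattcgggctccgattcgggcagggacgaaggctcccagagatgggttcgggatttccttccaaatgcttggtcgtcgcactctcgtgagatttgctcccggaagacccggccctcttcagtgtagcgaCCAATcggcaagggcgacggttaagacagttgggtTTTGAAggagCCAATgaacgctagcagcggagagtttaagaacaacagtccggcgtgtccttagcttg
Top2a: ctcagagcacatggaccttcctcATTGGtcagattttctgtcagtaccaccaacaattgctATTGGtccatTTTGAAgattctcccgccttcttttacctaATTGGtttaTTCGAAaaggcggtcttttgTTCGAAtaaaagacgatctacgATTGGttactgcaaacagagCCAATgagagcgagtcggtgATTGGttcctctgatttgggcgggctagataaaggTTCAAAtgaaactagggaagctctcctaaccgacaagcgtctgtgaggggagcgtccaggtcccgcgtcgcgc

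In these letters Bub3 and Cdc20, the activator of the anaphase-promoting complex, look alike: each has 1 CHR match and 2 CCAAT boxes. The CHR match of Bub3 starts 43 bases before the start and 5 bases from a CCAAT box, and that of Cdc20 starts 18 bases before it and 4 bases from one. Their levels were far apart, at 33.5 CPM per kb for Bub3 and 0.506 CPM per kb for Cdc20. From the other listed start of Bub3, its CHR match starts 167 bases before. Top2a had 4 CHR matches and 6 CCAAT boxes, and Pcna 1 CCAAT box. Such short gaps were not general. Of 22 CHR matches in the 30 windows, 6 lay within 10 bases of a CCAAT box, all in windows of Bub3, Cdc20, Cdk1 and Top2a. The mitotic genes Birc5, Ccnb1, Cenpe and Mad2l1 had no CHR match. A match is a run of letters and not a measured binding site.

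Across the windows, a CHR match was found in 7 of 9 checkpoint and exit windows (77.8%), 4 of 6 entry and kinase windows (66.7%) and both chromosome marker windows, against 2 of 9 replication windows (22.2%) and 0 of 4 G1 windows. It was found in 19.2% of all 32851 promoter windows of that length. An E2F-type match was found in 6 of 9 replication windows (66.7%), 2 of 6 entry and kinase windows (33.3%), 1 of 2 chromosome marker windows, 1 of 4 G1 windows and 0 of 9 checkpoint and exit windows, against 6.81% of all promoters. A CCAAT box was found in 26 of the 30 windows (86.7%), among them all 9 of the replication genes, against 37.4% of all promoters. Both Bub3 windows overlap each other, Mcm7 and Ccnd3 also have 2 windows, and 2 matches of different motifs overlap.

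**Figure D2:**
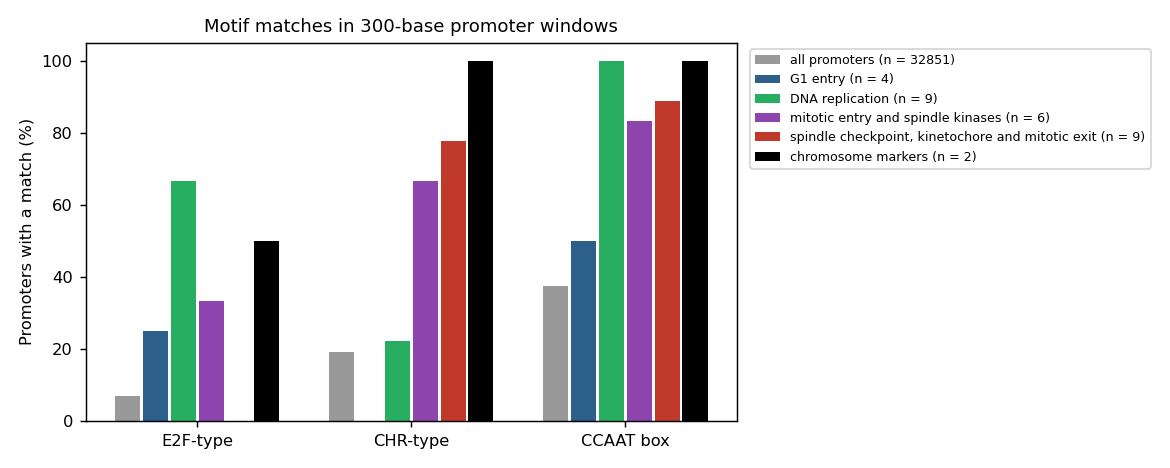
Share of 300-base promoter windows with at least 1 match to each motif, in percent, for all RefSeq promoters (grey) and for each role, with the number of windows in the legend. CHR-type matches reach 66.7% to 100% in the mitotic roles and 0% in the G1 windows.

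Paclitaxel against vehicle gave no call among these genes. In edgeR's quasi-likelihood test 0 of the 18 tested genes passed an adjusted p of 0.05 (smallest adjusted p = 0.792), against 0% of all 13287 genes tested. DESeq2 and limma-voom also called 0 of them. At an unadjusted p under 0.05 there was 1 gene, Ccnd2, where 6.07% of all tested genes reached that level. Values were lower with paclitaxel for 8 of the 18 and higher for 10, against 50.9% lower over all tested genes. The median log2 fold change was 0.03 over the 18 genes and -0.003 over all genes. The groups overlapped for each of the 18, while their ranges were apart for 1.09% of all tested genes (0.625% with paclitaxel the lower).

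**Figure D3:**
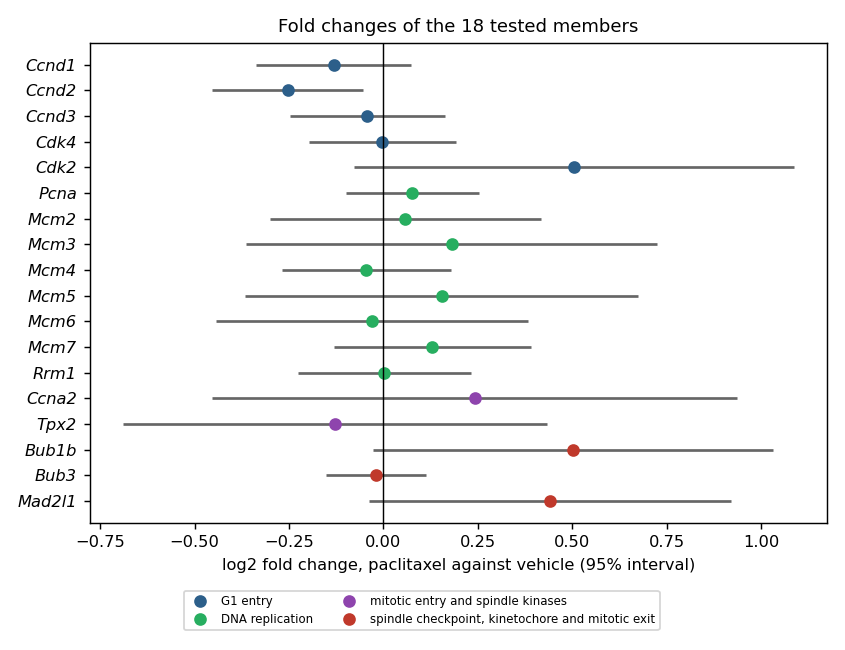
Log2 fold change of paclitaxel against vehicle for the 18 tested genes (points, coloured by role) with 95% intervals (lines). The interval of Ccnd2 alone excludes 0, and those of Bub3 and Pcna are the narrowest.

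Among the G1 genes, cyclin D2 was lower in value. Ccnd2, on chromosome 6 from 127125162 to 127152188 (GRCm38), was at 35.9, 34.9, 27.4, 42.0 and 33.4 CPM in paclitaxel replicates 1 to 5 and at 44.3, 43.5, 40.5, 42.3 and 35.9 CPM in vehicle replicates 1 to 5. Paclitaxel replicate 3 was lowest, and the groups overlapped through paclitaxel replicate 4 and vehicle replicate 5. The means were 34.7 ± 5.25 and 41.3 ± 3.35 CPM (SD, n = 5 each). The fitted ratio was 0.839-fold, with 95% bounds of 0.731 and 0.963. The log2 fold change of -0.25 (SE 0.10) ranked 208 by p and did not pass (edgeR, unadjusted p = 0.0146, adjusted p = 0.792). Without paclitaxel replicate 3 it was -0.18 (unadjusted p = 0.0515), and without that library and vehicle replicate 4 it was -0.17 (unadjusted p = 0.0814).

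The same library was the lowest for cyclin D1, which growth signals induce. Ccnd1 was at 53.7, 56.7, 36.3, 60.3 and 51.2 CPM in the paclitaxel libraries and at 54.2, 58.0, 53.2, 60.3 and 56.4 CPM in the vehicle libraries, in replicate order. Outside paclitaxel replicate 3 both groups covered much the same range. Its log2 fold change of -0.13 (SE 0.10) had 95% bounds of -0.34 and 0.07 (edgeR adjusted p = 0.831) and became -0.03 without paclitaxel replicate 3. Cyclin D3 and the kinase that D cyclins activate were close to level, with log2 fold changes of -0.04 (SE 0.10) for Ccnd3 and -0.002 (SE 0.09) for Cdk4. The sign of Ccnd3 turned without paclitaxel replicate 5, and that of Cdk4 with other scalings. For Cdk4 the 95% interval ran from 0.872-fold to 1.14-fold.

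Other genes also set paclitaxel replicate 3 apart. The CDK inhibitor gene Cdkn1a, which encodes p21 and is named here after its values were seen, was at 89.8 CPM in that library, between 18.8 and 21.7 CPM in the other paclitaxel libraries and between 19.0 and 34.3 CPM with vehicle. Its log2 fold change of 0.43 (SE 0.53; edgeR adjusted p = 0.904) became -0.33 without paclitaxel replicate 3. Of 12 lists of cell type markers, 6 had their lowest summed level of all 10 libraries in that library, among them neurons and mature oligodendrocytes, and 2 had their highest. Their part in its low D cyclin and Cdk2 values was not tested.

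Cdk2, the kinase that cyclins E and A activate at the start of DNA synthesis, was low in level, at 1.06 CPM per kb, and higher in value with paclitaxel. It was at 2.81, 3.51, 1.49, 3.00 and 3.67 CPM with paclitaxel and at 2.71, 2.62, 1.76, 1.30 and 1.79 CPM with vehicle. All paclitaxel libraries except replicate 3 lay above the highest vehicle library. The log2 fold change was 0.51 (SE 0.28; edgeR, unadjusted p = 0.0861, adjusted p = 0.80), and 0.67 without paclitaxel replicate 3 (unadjusted p = 0.0209, adjusted p = 0.972). These values rest on 6 to 20 counts per library.

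**Figure D4:**
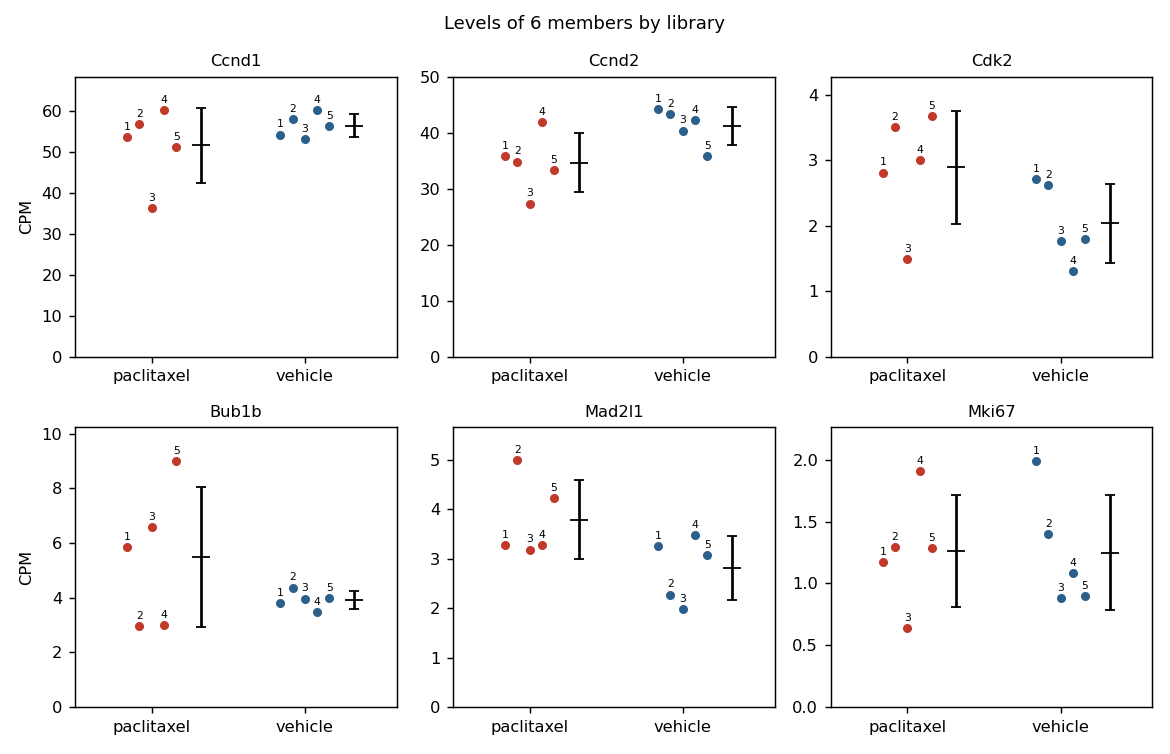
CPM of 6 genes in each library (points, numbered by replicate) with the mean and SD of each group (black). Paclitaxel replicate 3 is the lowest of its group for Ccnd1 (36.3 CPM), Ccnd2 (27.4 CPM) and Cdk2 (1.49 CPM), and paclitaxel replicate 5 is the highest for Bub1b (8.99 CPM).

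DNA replication genes were detected in every library, and Pcna and Rrm1 were at much the same level in both groups. Pcna was at 38.7, 43.1, 46.3, 43.9 and 41.8 CPM with paclitaxel and at 47.0, 37.6, 43.6, 38.2 and 36.9 CPM with vehicle. Its groups overlapped, with a log2 fold change of 0.08 (SE 0.08; edgeR adjusted p = 0.89) and a 95% interval from 0.934-fold to 1.19-fold. Without vehicle replicate 1, the highest library for Pcna, the log2 fold change was 0.14. Rrm1 was at 25.8 ± 3.34 and 25.5 ± 3.95 CPM (SD, n = 5 each), with an interval from 0.855-fold to 1.17-fold, and its log2 fold change was 0.11 without vehicle replicate 1. Its partner Rrm2, the subunit made mainly in S phase, held 36 and 38 counts and was under the filter. Without a filter, Rrm2 had a log2 fold change of 0.17 (95% interval -0.63 to 0.97).

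The MCM subunits form a ring of 6 different proteins loaded at replication origins. Their log2 fold changes ran from -0.05 (Mcm4) to 0.18 (Mcm3), with 4 higher and 2 lower in value, and each 95% interval included 0. Mcm7, which had the lowest p among them, was at 11.95, 12.8, 13.2, 10.6 and 11.4 CPM with paclitaxel and at 9.22, 11.7, 11.2, 11.5 and 11.3 CPM with vehicle. Vehicle replicate 1 was low for it, and its log2 fold change was 0.13 (SE 0.13; edgeR adjusted p = 0.866), or 0.08 without that library. Mcm3 was at 4.69, 4.62, 1.49, 5.18 and 4.59 CPM with paclitaxel and at 4.16, 4.19, 3.96, 1.95 and 3.59 CPM with vehicle. It was low in paclitaxel replicate 3 and vehicle replicate 4. Without the first its log2 fold change was 0.40, and without the second 0.05. Mean levels of Mcm4 were 16.2 ± 1.89 CPM in the paclitaxel group and 16.8 ± 0.70 CPM in the vehicle group (SD, n = 5 each), and Mcm5, whose product sits in the same ring, stood at 3.33 ± 0.83 and 3.00 ± 0.96 CPM.

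Among the spindle checkpoint genes, Bub3 varied little for its level, although it was low in paclitaxel replicate 4, and Bub1b varied more for its level. Bub3 was at 76.2, 76.2, 75.4, 66.8 and 74.5 CPM with paclitaxel and at 70.3, 75.6, 78.8, 72.7 and 77.2 CPM with vehicle. The groups overlapped throughout, and its 95% interval ran from 0.900-fold to 1.08-fold (log2 fold change -0.02, SE 0.06; edgeR adjusted p = 0.974). Bub1b, whose product BubR1 inhibits Cdc20, was at 5.86, 2.96, 6.58, 3.00 and 8.99 CPM with paclitaxel and at 3.80, 4.37, 3.96, 3.47 and 3.97 CPM with vehicle. The paclitaxel libraries fell on both sides of the narrow vehicle range, with 3 above it and 2 below. With 11 to 49 counts per library, the difference in spread was not tested. The log2 fold change was 0.50 (SE 0.26; edgeR, unadjusted p = 0.0622, adjusted p = 0.80), and 0.23 without paclitaxel replicate 5. Mad2l1, the checkpoint protein that captures Cdc20, was at 3.28, 4.99, 3.18, 3.27 and 4.22 CPM with paclitaxel and at 3.25, 2.27, 1.98, 3.47 and 3.08 CPM with vehicle. Each paclitaxel library was above the vehicle mean of 2.81 CPM, but the groups overlapped (log2 fold change 0.44, SE 0.23; edgeR, unadjusted p = 0.0697, adjusted p = 0.80). The low end of its interval was 0.974-fold and the high end 1.89-fold.

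The other checkpoint, kinetochore and exit genes were under the filter. The kinetochore motor gene Cenpe held 40 counts with paclitaxel and 57 with vehicle, and Cenpf held 19 and 27. Cdc20 held 22 and 25 counts, Bub1 6 and 8, and Ube2c, the ubiquitin-conjugating enzyme of mitotic exit, 5 and 6. After scaling to depth, the ratio of paclitaxel to vehicle over these pooled counts was 0.842 for Cenpe, 0.845 for Cenpf and 1.06 for Cdc20. The intervals of the fit without a filter were wide, from 0.541-fold to 1.32-fold for Cenpe and from 0.555-fold to 2.00-fold for Cdc20 (edgeR), so moderate changes were not detectable at this depth.

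Genes of mitotic entry gave 2 that could be tested. Tpx2, which activates Aurora A on the spindle, was at 1.41, 2.22, 3.61, 3.55 and 3.67 CPM with paclitaxel and at 4.16, 2.45, 2.20, 4.12 and 2.95 CPM with vehicle. The groups overlapped, with a log2 fold change of -0.13 (SE 0.27; edgeR adjusted p = 0.955) that became 0.035 without paclitaxel replicate 1. It was -0.006 without vehicle replicate 1 and -0.03 without vehicle replicate 4. Ccna2 was at 0.937, 0.924, 3.82, 3.55 and 2.75 CPM with paclitaxel but between 1.81 and 2.10 CPM in every vehicle library. As for Bub1b, the paclitaxel libraries lay on both sides of a narrow vehicle range. The Ccna2 values rest on only 4 to 18 counts per library, and the difference in spread was not tested. The log2 fold change was 0.24 (SE 0.34; edgeR adjusted p = 0.922), and -0.003 without paclitaxel replicate 3.

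Of the kinases that start mitosis, Cdk1 held 14 counts with paclitaxel and 24 with vehicle, Plk1 25 and 19, and Aurka 47 and 53. Birc5, the passenger complex subunit survivin, held 27 and 22 counts. Without a filter on low counts the log2 fold change was -0.50 for Cdk1 (95% interval -1.55 to 0.54), 0.64 for Plk1 (-0.29 to 1.58) and 0.56 for Birc5 (-0.33 to 1.45). Each of these 3 intervals covered both a decrease and an increase, and none of the genes passed (edgeR adjusted p = 0.843, 0.82 and 0.82). The cyclin B genes Ccnb1 and Ccnb2 held 7 and 5 counts with paclitaxel and 7 and 10 with vehicle.

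The standard proliferation markers did not differ in a way this depth could show. Mki67 was at 1.17, 1.29, 0.637, 1.91 and 1.28 CPM with paclitaxel and at 1.99, 1.40, 0.880, 1.09 and 0.897 CPM with vehicle, from 3 to 11 counts per library. The group means were 1.26 ± 0.45 and 1.25 ± 0.46 CPM (SD, n = 5 each). Without a filter its log2 fold change was -0.01 with a 95% interval from 0.570-fold to 1.73-fold (edgeR adjusted p = 0.998). Top2a was at 1.41, 0.370, 0.425, 1.91 and 0.550 CPM with paclitaxel and at 1.81, 1.22, 0.220, 0.434 and 1.15 CPM with vehicle. Its libraries were spread alike in both groups, with an interval from 0.429-fold to 1.70-fold.

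Counts were also summed within roles, since many of the genes were low. No test was run on these sums. The 5 G1 genes together were at 151, 146, 111, 161 and 140 CPM with paclitaxel and at 156, 157, 146, 160 and 147 CPM with vehicle. The ratio of the means was 0.927 (log2 -0.11), and the log2 ratio was -0.03 without paclitaxel replicate 3, the lowest library. The 9 replication genes were at 120 ± 6.61 and 117 ± 8.80 CPM (SD, n = 5 each), a ratio of 1.03, or 1.06 without vehicle replicate 1.

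The 18 mitotic genes other than Bub3 held 613 counts with paclitaxel and 659 with vehicle. Their sum was 22.3, 22.3, 26.7, 28.8 and 30.3 CPM in paclitaxel replicates 1 to 5 and 30.5, 21.6, 19.5, 21.6 and 22.8 CPM in vehicle replicates 1 to 5. The highest library of all was vehicle replicate 1, and every other vehicle library except replicate 5 lay below the lowest paclitaxel one. The means were 26.1 ± 3.71 and 23.2 ± 4.27 CPM (SD, n = 5 each), a ratio of 1.12 (log2 0.17). The log2 ratio was 0.29 without vehicle replicate 1 and 0.11 without paclitaxel replicate 5. Most of the difference between the group means of this sum came from Bub1b and Mad2l1. The mean of Bub1b was 5.48 CPM in the paclitaxel group against 3.91 CPM in the vehicle group, and that of Mad2l1 3.79 against 2.81 CPM. Tpx2 went the other way, with means of 2.89 against 3.17 CPM. The sum is therefore not evidence of a broad shift over the 18 genes. With Bub3 added, the 19 genes were at 99.9 ± 3.58 and 98.1 ± 2.55 CPM, a ratio of 1.02. Over the 15 genes under the filter, which include Rrm2, the sums were 302 counts with paclitaxel and 361 with vehicle, or 13.003 ± 2.32 and 12.7 ± 3.74 CPM (SD, n = 5 each). The ratio of these means was 1.02, and 1.17 without vehicle replicate 1. Of these 15 genes, 8 were lower with paclitaxel by their pooled counts scaled to depth.

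**Figure D5:**
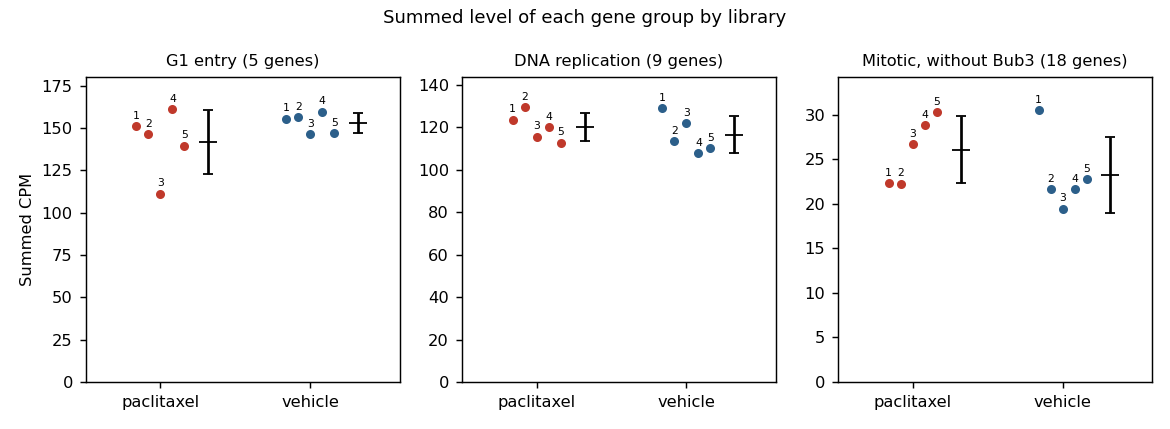
Summed CPM of the G1 genes, the replication genes and the mitotic genes without Bub3 in each library (points, numbered by replicate), with the mean and SD of each group (black). Paclitaxel replicate 3 is low for the G1 genes (111 CPM) and vehicle replicate 1 high for the mitotic genes (30.5 CPM).

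The wider cell cycle pathways gave the same result by gene, with 0 genes passing in either direction in 5 lists (edgeR). Of 29 E2F, RB and CDK inhibitor genes 21 were tested, with a median log2 fold change of -0.001. Of lowest p there were the repressive factor E2f4 (-0.20, SE 0.10), Lin9 of the complex that binds CHR letters (0.35, SE 0.20) and E2f5 (-0.25, SE 0.15). Of 41 genes of origin licensing and the replication fork 31 were tested, with a median of -0.01. The polymerase δ subunit Pold1 was at -0.37 (SE 0.16), the dUTPase gene Dut at -0.25 (SE 0.12) and the polymerase ε subunit Pole at 0.44 (SE 0.23). Pold1 and Dut were the 2 genes of this list lower at an unadjusted p under 0.05, where 3.12% of all genes tested were.

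Of 31 further spindle and kinetochore genes only 10 could be tested, with a median of -0.01. Anln, which encodes the contractile ring protein anillin, was at 198 ± 25.6 and 176 ± 15.1 CPM (SD, n = 5 each; log2 fold change 0.17, SE 0.08). It was the 1 gene of this list higher at an unadjusted p under 0.05 (edgeR), where 2.94% of all genes tested were. Its level was far above the 1.25 CPM of Mki67 over all libraries, and which cells carry Anln was not tested. Nuf2 was at -0.31 (SE 0.32) and Pttg1, securin, at -0.08 (SE 0.10). Of the cohesin and condensin list 15 of 17 were tested, 11 higher and 4 lower in value with a median of 0.03. In it the cohesin subunits Stag1 and Stag2 were at 0.20 (SE 0.09) and 0.15 (SE 0.07) and the condensin subunit Ncapd2 at -0.21 (SE 0.10). The anaphase-promoting complex list had 16 of 17 tested and a median of -0.02. Its genes of lowest p were the activator Fzr1 (-0.15, SE 0.09), Anapc11 (-0.13, SE 0.08) and Anapc7 (0.13, SE 0.08).

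Markers of the cells that could carry these transcripts were read beside them. In bulk tissue, fewer cells of a type and less RNA per cell cannot be told apart. The 10 oligodendrocyte precursor genes summed to 542 to 567 CPM in the paclitaxel libraries and 466 to 552 CPM in the vehicle libraries. Of 9 tested, 6 were higher and 3 lower in value, with a median of 0.12, so the list did not move as 1. At an unadjusted p under 0.05 (edgeR) 0 were lower and 4 were higher, where 2.94% of all tested genes were higher. These 4 were the growth factor receptor gene Pdgfra (0.16, SE 0.07), Vcan (0.25, SE 0.11), Ptprz1 (0.13, SE 0.06), which astrocytes also express, and Neu4 (0.29, SE 0.12), each with an adjusted p of 0.792 in edgeR. The part of precursor cells in the mitotic sums was not tested.

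Markers of other cells gave median log2 fold changes on both sides of 0. They were 0.09 for 7 microglial genes, -0.04 for 6 endothelial genes, -0.04 for 3 tested ependymal genes, -0.06 for 4 tested genes of meninges and fibroblasts and 0.10 for 5 astrocyte genes. The astrocyte sums did not overlap, at 3533 to 3788 CPM with paclitaxel and 3326 to 3521 CPM with vehicle, and were not tested. Of the 5 astrocyte genes 4 were higher and 1 lower in value. Only 1 was higher at an unadjusted p under 0.05 (edgeR), where 2.94% of all tested genes were, and 0 passed. The meningeal sum reached 93.5 CPM in vehicle replicate 4, against 51.9 to 64.1 CPM in the paclitaxel libraries. Of 11 marrow precursor and granulocyte genes 2 could be tested, Kit and Tfrc, which neurons or endothelium also express. The lymphocyte list summed to between 2.69 and 6.10 CPM, with Cd3d and Ms4a1 at 0 counts in all libraries. Red blood cell genes summed to 62.2 to 276 CPM with paclitaxel and 126 to 227 CPM with vehicle, lowest in paclitaxel replicate 3. The same library was below all 9 others in the summed markers of neurons (6231 CPM), mature oligodendrocytes (20104 CPM), endothelium (92.6 CPM), ependymal cells (33.3 CPM) and nerve roots (80.7 CPM). It was above all 9 others in those of oligodendrocyte precursors (567 CPM) and of the marrow list (279.8 CPM), and lowest of its own group for microglia (235 CPM) and lymphocytes (3.18 CPM). Medians for neurons, mature oligodendrocytes, red blood cells and nerve roots were -0.03, 0.02, -0.08 and 0.11.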

How the data were processed

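The authors deposited 1 table of expected counts from RSEM, 1 value per gene and library with no depth scaling. The submitters' processing notes name build mm10 and the tools STAR, RSEM and edgeR 4.2.0, with no annotation release, strand setting or other version. Expected counts were rounded to whole numbers (5.04% of values were not whole). Within a group, libraries differed by more than sampling noise (chi-square of at least 1.59 per degree of freedom). Genes were filtered with filterByExpr (minimum count 10, minimum total 15), scaled by TMM and tested with edgeR 4.0.16 (R 4.3.3) by the robust quasi-likelihood test without covariates. P-values were two-sided and Benjamini-Hochberg adjusted over all genes, with a threshold of 0.05 and intervals at 95%. Sums used expected counts before rounding. Transcript lengths came from GENCODE M21, coordinates and promoters from RefSeq GRCm38.p6.

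Alternatives were DESeq2 size factors or library totals, other filters, DESeq2 1.42.0, limma-voom (limma 3.58.1), the replicate number as a block, and leaving out each library. A fit with neither paclitaxel replicate 3 nor vehicle replicate 4 was added after the data were seen. Genes and lists were chosen with earlier results of these data known. Values in every library are given for the 6 genes of lowest p, the most abundant of each role and, as needed, standard markers and MCM genes, of which Mcm3 was shown for its outlying libraries, and up to 3 genes of lowest p are named per related list. Ccna2 and Cdkn1a were added after their values were seen.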

Additional observations from a re-analysis of the deposited data

Results flagged for a closer look

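Single libraries stood far from the other 4 of their group in 7 of 58 checks. Chance gives about 1 in 20 only for independent checks of normally distributed values. These checks covered genes and also sums of the same genes, and some values rest on few counts. An excess over chance was therefore not tested. Mcm3 was at 1.49 CPM in paclitaxel replicate 3, with the nearest library at 4.59 CPM, and at 1.95 CPM in vehicle replicate 4, with the nearest at 3.59 CPM. Vehicle replicate 1 was low for Mcm7 (9.22 CPM, nearest 11.2 CPM) and high for Rrm1 (32.4 CPM, nearest 25.2 CPM). The same library was high for the sum of the 15 genes under the filter (19.2 CPM, nearest 12.05 CPM). Paclitaxel replicate 4 was low for Bub3 (66.8 CPM, nearest 74.5 CPM) and hence for the sum of the checkpoint, kinetochore and exit genes (78.0 CPM, nearest 88.2 CPM). Outside these checks, Cdkn1a was at 89.8 CPM in paclitaxel replicate 3, with the nearest library at 21.7 CPM.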

How the results depend on the processing

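Of 18 tested genes, 9 kept the sign of their log2 fold change in all 18 alternatives and 9 did not. No gene of the 33 passed in any fit that tested it, and most fits left out many of the 15 genes under the filter. Cdk4 was at 0.0024 with DESeq2 size factors, 0.00038 with library totals, 0.0017 in DESeq2 and 0.044 with paclitaxel replicate 3 and vehicle replicate 4 both left out. With the same 2 libraries left out Ccnd3 was at 0.029, Ccna2 at -0.0090 and Cdkn1a at -0.27. In limma-voom Mcm6 was at 0.015 and Rrm1 at -0.00065. With each library left out in turn, log2 fold changes ran from -0.054 to 0.046 for Cdk4, -0.082 to 0.0090 for Ccnd3, -0.075 to 0.16 for Mcm2, -0.089 to 0.0066 for Mcm4 and -0.17 to 0.11 for Mcm6. They ran from -0.048 to 0.11 for Rrm1, -0.0025 to 0.43 for Ccna2, -0.24 to 0.035 for Tpx2, -0.037 to 0.015 for Bub3 and -0.33 to 0.59 for Cdkn1a. The number of genes among the 33 at an unadjusted p under 0.05 was 1 to 2 in those fits and 2 without a filter, where Bub1b joined Ccnd2. Without paclitaxel replicate 3 the 1 gene was Cdk2, and with both libraries left out it was Mad2l1. Over all genes, 806 were at an unadjusted p under 0.05, against 1299 without vehicle replicate 1, 515 without vehicle replicate 3 and 508 with both libraries left out. Over all genes, DESeq2 called 1 gene (Klf4) and the replicate block 1 gene (Fos). The labels do not say that replicate numbers pair the samples, and 5 of 10 libraries correlated best with their own number. Those correlations were weak, from -0.10 to 0.14 over the 5 numbers, with 2 over 0.1. With the block Ccnd2 had a log2 fold change of -0.25. The depth limits the 15 genes under the filter most.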
